A study of Mus musculus with 4 samples.

Results

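Potassium channel genes were taken as all array entries, other than control spots, whose gene name is Kcn followed by lower-case letters and a number. The rule gave 92 genes with 138 probes, of 34964 entries with 55681 probes on the array, and all 92 names were found in RefSeq. The RNA was precipitated from lysate of corticohippocampal tissue of male C57BL/6 mice, an inbred strain, aged 8 weeks. The lysate was kept for 3 h with beads carrying an antibody to CPEB3 (CPEB3 IgG, 2 arrays) or control IgG (2 arrays). From each precipitate 0.2 ug of RNA was amplified with Cy3 label and read on an Agilent array of 1 colour. The labels name no treatment of the animals and no genotype beyond the strain, and no array of the input lysate was analysed here. Nothing in the labels shows whether the replicates began from different animals or different lysates. The p-values therefore cover the spread between these arrays alone, and that spread may be technical. The question put to each gene is whether its mRNA made up more of the RNA brought down with CPEB3 IgG than of that brought down with control IgG.

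Potassium channels let potassium leave the cell and so bring a neuron back towards its resting potential. Voltage-gated channels open on depolarisation and shape spikes, inward rectifiers and two-pore channels hold the resting potential, and calcium- or sodium-activated channels set the pause after a spike. CPEB3 is an RNA-binding protein of neurons that binds U-rich elements in the 3′ untranslated regions of mRNAs and regulates their translation and polyadenylation.

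Because several results differ between probes of the same gene, the probes that carry these differences are shown first. Each array probe is a 60-base sequence of the mRNA strand. The bases below are 30 of them, 5′ to 3′, copied from the deposited files, with capitals marking runs of at least 4 T (U in the mRNA). The Kcnc1 probes lie on chromosome 7, plus strand, of mm9. The probe with the strongest signal is at chr7:53693712-53693771 (position 3944 of 1 transcript), and the others are at chr7:53688622-53688681 and chr7:53682767-53682826 (positions 7686 and 1831 of another transcript). The Kcnf1 probes lie on the minus strand at chr12:17179527-17179586 and chr12:17181507-17181566, at positions 4108 and 2128 of the same transcript. The Kcna5 probes lie on the minus strand at chr6:126482573-126482632 and chr6:126483373-126483432, at positions 2941 and 2141 of the same transcript.
Kcnc1 at 3944: aataaaTTTTgtaacatggtttctgtctag
Kcnc1 at 7686: acgacagacTTTTTTaagttccaaaattat
Kcnc1 at 1831: gagcgcttcaaccccatcgtgaacaagacc
Kcnf1 at 4108: aagtatcTTTTTgctgctcgttcaggaata
Kcnf1 at 2128: acagaggagaagcatcataggacccgccta
Kcna5 at 2941: attcTTTTcaTTTTgatagcaggaaataaa
Kcna5 at 2141: ctgtatgccctctgtctggacactagccgg
In each of these genes the printed runs of T lie in probes nearer the 3′ end of the gene than the probe without one. Whether a probe lies in an exon of the coding region or in an untranslated region was not analysed here.

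The cytoplasmic polyadenylation element that gives CPEB proteins their name is written TTTTAT or TTTTAAT in DNA letters. Of the 117 potassium channel probes tested, TTTTAT was in 2 (1.71%) and TTTTAAT in 4 (3.42%), against 3.71% and 0.901% of all 40616 probes tested, with only the mRNA strand of the probe read. The reverse complements were in 5.13% and 4.27% of the potassium channel probes, against 5.37% and 1.34% of all. In the 5 probes below, each 30-base stretch is placed so that it holds the element, which is in capitals.
Kcnk5 (chr14:20959684-20959743, minus strand): aatattTTTTAATgaactgttatTTTTATa
Kcnn3 (chr3:89476303-89476362, plus strand): ctgcttgctattTTTTAATgataggagaaa
Kcnip3 (chr2:127282242-127282301, minus strand): cagtcctatataTTTTAATaaaagaaactt
Kcna6 (chr6:126686922-126686981, minus strand): aactcaaaggactgttaacatgtTTTTAAT
Kcnh3 (chr15:99073172-99073231, plus strand): tgtcctcatgttTTTTATattaaaaaacat
The Kcnk5 probe holds both forms. The log2 differences of the others were 0.82 for Kcnn3, 0.55 for Kcnip3, 0.65 for Kcna6 and 0.68 for Kcnh3. The Kcnk5 probe, above background with CPEB3 IgG alone, gives only a bound. In the fit over all probes, those of Kcnip3 and Kcnh3 were not called (limma adjusted p = 0.0553 and 0.0787). Over all probes tested, 35.5% of those with TTTTAT were called higher, against 15.1% of those without. For TTTTAAT the shares were 33.1% and 15.7%. The median difference over all probes was 0.33 with either form. A match within 60 bases describes the probe and not the whole mRNA.

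Of the probes on each array 68.0% to 73.4% were well above background, the 75th percentile of the signal was 353 to 507 units, and 0 spots were saturated. Over the genes tested, the correlation was 0.988 between the CPEB3 IgG arrays and 0.979 between the control arrays, against 0.925 to 0.938 between the groups. On the 1 slide, the first position number was 2 for both CPEB3 IgG arrays and 1 for both control IgG arrays. Group and this position cannot be told apart. The second position number was 1 for both replicate 1 arrays and 2 for both replicate 2 arrays. Replicate number and that position cannot be told apart either. All listed markers of excitatory neurons, hippocampus, inhibitory neurons, astrocytes, oligodendrocytes, microglia and vessels passed as well above background on every array, as did 2 of 3 of cerebellum (Gabra6 was not tested). The inhibitory neuron markers had a median difference of −0.51, with 0 of 6 called higher and 2 lower. Cpeb3 mRNA was at 4.22 and 3.85 with CPEB3 IgG and at 1.28 and 0.91 with control IgG, a log2 difference of 2.95 ± 0.23 (SE, limma adjusted p = 0.00386).

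Potassium channel mRNAs were called higher with CPEB3 IgG more often than lower. A level here is the log2 signal of a probe relative to the 75th percentile of its array, a gene stands by its tested probe with the strongest signal, and a difference is CPEB3 IgG minus control IgG. A gene is called when limma's adjusted p, over all 27687 genes tested, is under 0.05. Of the 81 genes tested, 27 were called higher (33.3%), against 19.2% of all genes tested, 3 were called lower (3.70%), against 20.2% of all genes, and 51 were not called. Kcnk5, one of the 27, passed the filter on dim probes only through the CPEB3 IgG arrays, so its call follows in part from the filter, and 26 of the other 80 genes were called higher. In either direction 39.4% of all genes were called. Among the 17221 genes measured on a RefSeq transcript, as these were, 25.5% were called higher and 19.8% lower. The median difference of the 81 genes was 0.37, with a range from −1.38 to 2.50, against a median of −0.14 over all genes. With spike-in scaling the medians were 1.03 and 0.51, and with scaling on the array median 0.66 and 0.15. The sign of 22 of the 81 differences turned under some scaling, and 0 of these were called genes.

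Both CPEB3 IgG arrays lay above both control arrays in 43 of the 81 genes, where all genes tested gave 31.6%, and both below in 13, where all genes gave 41.3%. Of the 81 genes tested, 17 were called higher and differed at least 2-fold, where all genes tested gave 13.6%. With CPEB3 IgG replicate 1 left out, 6 of the 27 genes called higher were still called, which were Kcnc1, Kcnc2, Kcnh1, Kcnk1, Kcnk2 and Kcnk10. The total called higher was then 6, and it was 11 without CPEB3 IgG replicate 2, 20 without control IgG replicate 1 and 17 without control IgG replicate 2. The lysate mixes many cells, so in a level the number of cells of a type and the mRNA per cell cannot be told apart. A difference compares the RNA brought down with CPEB3 IgG and with control IgG.

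**Figure D1:**
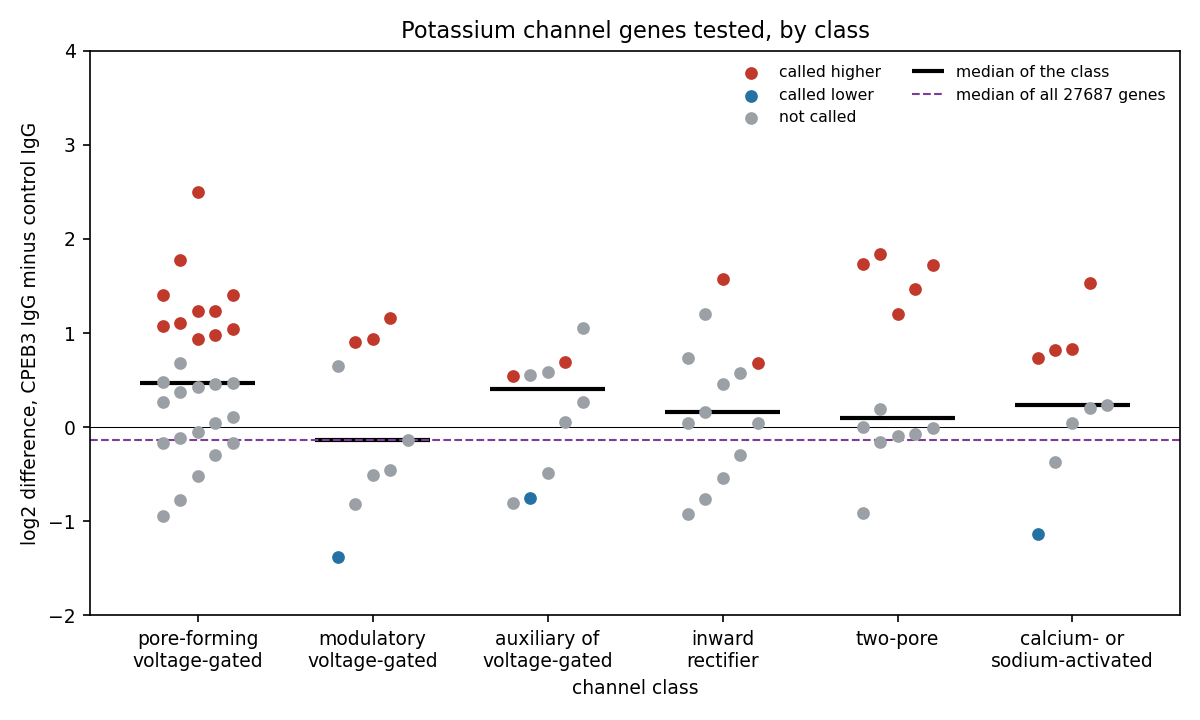
Log2 difference (CPEB3 IgG minus control IgG, vertical axis) of each of the 81 tested potassium channel genes, by channel class; red points were called higher, blue lower and grey not called, black bars are class medians and the dashed line is the median of all genes. The pore-forming voltage-gated class holds 11 of the 27 genes called higher and its median is 0.47. These are 39.3% of the 28 tested in the class, against 19.2% of all genes.

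The plot of differences by class shows genes called higher in every class and wide spread within each. Of all genes tested 19.2% were called higher and 20.2% lower, so some calls are found in most lists. The share called higher was 15.4% in inward rectifiers and 20% in auxiliary subunits. In the other classes it was 33.3% to 44.4%. Pore-forming voltage-gated channels had 11 called higher and 0 lower of 28 tested (30 listed), with a median difference of 0.47. The modulatory voltage-gated subunits had 3 higher and 1 lower of 9 (10 listed), with a median of −0.14. Auxiliary subunits of voltage-gated channels had 2 higher and 1 lower of 10 (11 listed), with a median of 0.41. Among the others, inward rectifiers had 2 higher and 0 lower of 13 (15 listed, median 0.16), two-pore channels 5 and 0 of 12 (14 listed, median 0.097), and calcium- or sodium-activated channels 4 and 1 of 9 (12 listed, median 0.23). No test was made between classes.

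Kcnc1 had the largest difference of all potassium channel genes. It encodes a pore subunit of the Shaw family, whose channels open and close fast and let interneurons fire at high rates. Its level was 3.40 and 3.24 on the CPEB3 IgG arrays and 0.77 and 0.87 on the control arrays. The groups lay far apart, with Kcnc1 5.65-fold higher in the CPEB3 precipitate (2.50 ± 0.16 on the log2 scale, SE, limma adjusted p = 0.00386). This value belongs to the probe at position 3944 shown above, and the other Kcnc1 probes gave 0.31 and −0.34. Kcnc2, which encodes another subunit of this fast family, was at 1.86 and 1.63 with CPEB3 IgG and at 0.32 and 0.36 with control IgG. It was 2.65-fold higher (1.40 ± 0.17, limma adjusted p = 0.00657). Kcnc4, of the same family, was not called, with a difference of 0.46.

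The ether-a-go-go family had 3 called higher of 8 tested (37.5%), against 19.2% of all genes tested. Kcnh1, a slowly activating channel of brain, was at −1.22 and −0.80 with CPEB3 IgG and at −2.88 and −2.69 with control IgG. The groups did not overlap, and the gene was 3.43-fold higher (1.78 ± 0.21, limma adjusted p = 0.00687). Kcnh4 was at 2.08 and 2.30 against 0.69 and 1.21, with a log2 difference of 1.24 ± 0.24. Kcnh5 was at 1.50 and 1.17 against 0.31 and 0.22, with a difference of 1.07 ± 0.19. Kcnh3, whose groups did not overlap either, had a difference of 0.68 (limma adjusted p = 0.0698). Kcnh2, best known for its part in repolarising the heart, had a difference of −0.056 and overlapping groups. The call of Kcnh4 was lost without CPEB3 IgG replicate 1 (1.35, limma adjusted p = 0.0797) and without replicate 2 (1.13, 0.0988), and that of Kcnh5 without CPEB3 IgG replicate 1 (0.91, 0.0715) and without scaling.

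Of the A-type channels, whose transient current delays firing and damps signals in dendrites, 2 of the 3 Kcnd genes were called higher. Among all genes tested the share was 19.2%. Kcnd3 was at 4.27 and 3.63 with CPEB3 IgG and at 2.73 and 2.35 with control IgG, a difference of 1.41 ± 0.29 (limma adjusted p = 0.0242). Kcnd2, the dendritic subunit of hippocampal pyramidal cells, was at 3.53 and 2.96 against 2.37 and 2.16, a difference of 0.98 ± 0.25 (limma adjusted p = 0.0416). In both genes every CPEB3 IgG array lay above every control array. Kcnd1 was not called at its probe with the strongest signal (0.43). The call of Kcnd3 was lost without CPEB3 IgG replicate 1 (1.09) and without control IgG replicate 2 (1.21). That of Kcnd2 was lost without CPEB3 IgG replicate 1 (0.69), without control IgG replicate 1 (1.08) and replicate 2 (0.88), without scaling and with dim probes kept in.

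The Shaker family, whose members are delayed rectifiers or A-type channels of axons, had 2 called higher of 7 tested. That is 28.6%, against 19.2% of all genes tested. Kcna1, found at the flanks of nodes of Ranvier and linked to episodic ataxia, was at 3.97 and 3.98 with CPEB3 IgG and at 2.84 and 3.01 with control IgG. The difference was 1.04 ± 0.16 (limma adjusted p = 0.0110). Kcna5 was at −0.47 and −0.29 against −1.45 and −1.77, a difference of 1.23 ± 0.19 (limma adjusted p = 0.0120). The groups did not overlap in either gene. Kcna2, which joins Kcna1 in axonal channels, had a difference of −0.52 and was not called, and the sign turned with spike-in scaling (0.13). Kcna4 was spread over 4.70 and 2.85 on the control arrays and was not called (−0.94, 95% interval −2.70 to 0.81). Kcna6, whose probe had the strongest signal of all pore-forming subunits, was not called (0.26). Without CPEB3 IgG replicate 1 and replicate 2 the calls of Kcna1 (1.05 and 1.04) and Kcna5 (1.32 and 1.14) were lost. The call of Kcna1 was lost without scaling, and that of Kcna5 with the mean of its probes (0.60).

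The Kcnq genes encode the M-current, a slow current that muscarinic receptors suppress. Kcnq3 was at −1.76 and −1.39 with CPEB3 IgG and at −1.97 and −1.93 with control IgG, a difference of 0.37. Kcnq5 was at −0.74 and −0.65 against −1.18 and −1.17, a difference of 0.48. In both every CPEB3 IgG array lay above every control array, and neither gene was called (limma adjusted p = 0.196 and 0.0641). Kcnb2, a delayed rectifier of neurons, was not called either, with a difference of −0.17 and overlapping groups.

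**Figure D2:**
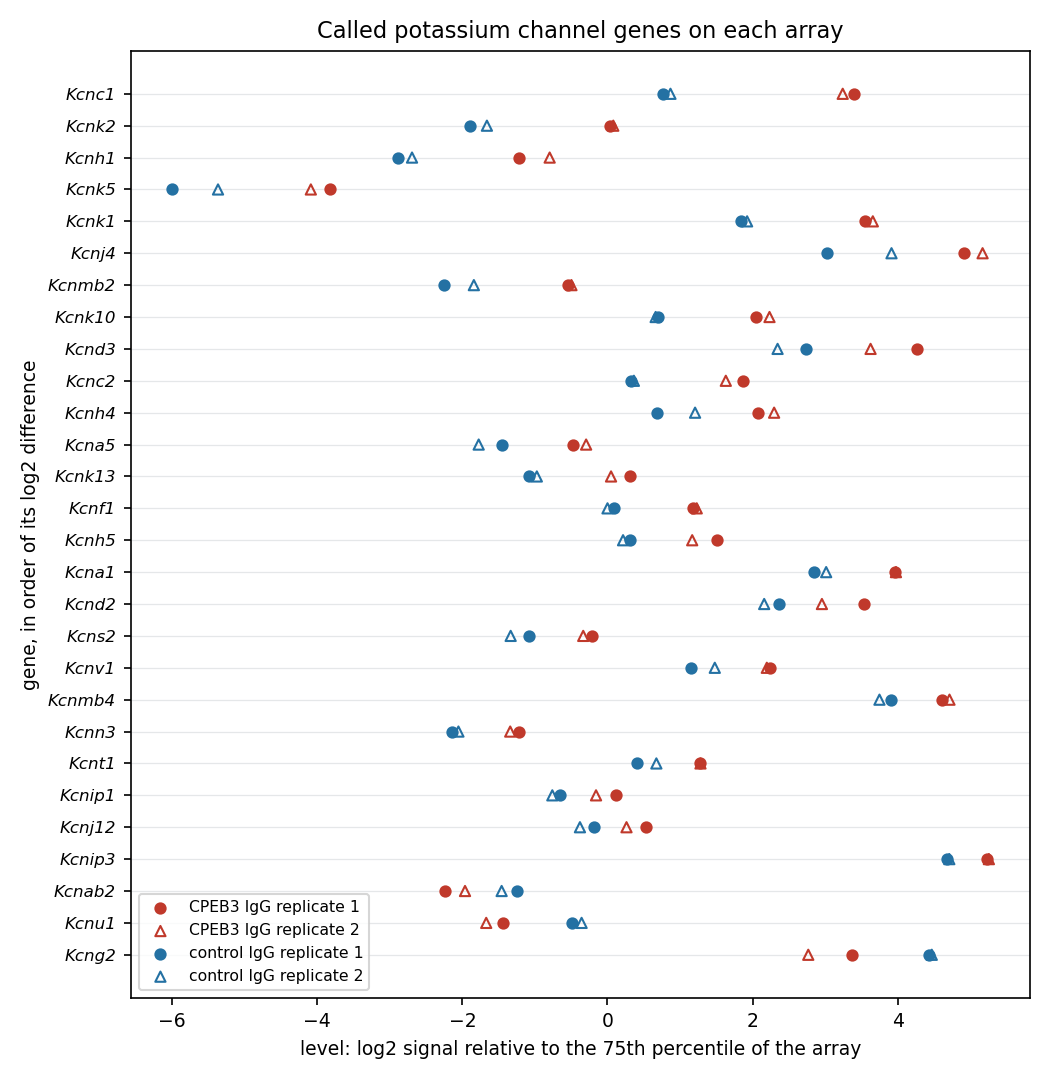
Level of 28 called potassium channel genes (horizontal axis, log2 signal relative to the 75th percentile of the array) on the 4 arrays, with genes in order of their difference; red marks are CPEB3 IgG and blue marks control IgG, filled circles replicate 1 and open triangles replicate 2. Red marks lie to the right of blue marks in 25 genes and to the left in the 3 lowest ones. The blue marks of Kcnk5 are below background.

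The modulatory subunits form no channel alone but join Kcnb subunits and change how they open. Kcnf1 was at 1.17 and 1.23 with CPEB3 IgG and at 0.086 and 0.00093 with control IgG, a difference of 1.16 ± 0.15 (limma adjusted p = 0.00784). Kcns2 had a difference of 0.93 ± 0.17 (limma adjusted p = 0.0184) and Kcnv1 one of 0.90 ± 0.18 (limma adjusted p = 0.0225), both without overlap of the groups. All 4 Kcng genes had differences below 0. Kcng2 was the lowest of all potassium channel genes, at 3.37 and 2.77 with CPEB3 IgG and at 4.43 and 4.47 with control IgG. It was called lower, 2.60-fold (−1.38 ± 0.25, limma adjusted p = 0.0175). Kcng3, Kcng4 and Kcng1 were not called, with differences of −0.82, −0.45 and −0.14. In the Kcng genes 1 of 4 differences turned positive with scaling on the array median and 2 of 4 with spike-in scaling, where Kcng2 was no longer called (−0.72). Leaving out CPEB3 IgG replicate 1 ended the calls of Kcnf1 (1.19, limma adjusted p = 0.0502), Kcns2 (0.87) and Kcnv1 (0.88). Leaving out CPEB3 IgG replicate 2 ended those of Kcns2 (0.99), Kcnv1 (0.93) and Kcng2 (−1.08, limma adjusted p = 0.0521). Leaving out control IgG replicate 1 ended that of Kcnv1 (0.74) and control IgG replicate 2 that of Kcns2 (0.80). Without scaling Kcnf1, Kcns2 and Kcnv1 were not called, nor was Kcnf1 with the mean of its probes (0.29).

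Among the auxiliary subunits, the KChIP proteins are calcium-binding partners of the Kcnd channels. Kcnip3, also known as a calcium-dependent transcriptional repressor, was at 5.23 and 5.26 with CPEB3 IgG and at 4.68 and 4.71 with control IgG. The difference was small and the replicates close (0.55 ± 0.15, limma adjusted p = 0.0447). In the fit over all probes the same Kcnip3 probe was not called (limma adjusted p = 0.0553). Kcnip1 was at 0.12 and −0.16 against −0.65 and −0.76, a difference of 0.69 ± 0.18 (limma adjusted p = 0.0415). Kcnip2 and Kcnip4 were not called (0.27 and 0.060). The Kcnab genes encode cytoplasmic beta subunits of Shaker channels. Kcnab2 was at −2.24 and −1.96 with CPEB3 IgG and at −1.24 and −1.46 with control IgG, and was called lower (−0.75 ± 0.19, limma adjusted p = 0.0385). Kcnab1 (0.56) and Kcnab3 (−0.48) were not called, although the groups did not overlap in either. The 3 calls of this class did not hold with any array left out: the differences ran from 0.55 to 0.83 for Kcnip1, from 0.53 to 0.56 for Kcnip3 and from −0.89 to −0.61 for Kcnab2. With spike-in scaling, no scaling or cyclic loess, and without the filter on dim probes, all 3 calls were lost, and Kcnip1 and Kcnip3 were not called with the mean of their probes. The call of Kcnip3 was also lost with the replicate block, and that of Kcnab2 with normexp, quantile and median scaling.

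Inward rectifiers pass current more readily into than out of the cell and clamp the resting potential. Kcnj4, a strong rectifier of forebrain neurons, was at 4.91 and 5.17 with CPEB3 IgG and at 3.02 and 3.92 with control IgG. The control arrays were further apart than the CPEB3 IgG arrays, and the difference was 1.57 ± 0.35 (limma adjusted p = 0.0282), or 2.97-fold. Kcnj12 was at 0.53 and 0.26 against −0.19 and −0.38, a difference of 0.68 ± 0.18 (limma adjusted p = 0.0463). In the fit over all probes its probe was not called (limma adjusted p = 0.0545). Kcnj2 had a difference of 1.20 but its control arrays were at −1.58 and −3.18, and it was not called (95% interval −0.32 to 2.72). Of the subunits that G proteins open, Kcnj3 (0.45) and Kcnj6 (0.57) lay above 0 and Kcnj9 (−0.77) and Kcnj5 (−0.54) below, and 0 of these 4 were called. Kcnj10, the rectifier of astrocytes, was at 3.97 and 3.29 with CPEB3 IgG and at 3.23 and 2.55 with control IgG, and was not called (0.74). The pore subunit of the ATP-sensitive channel, Kcnj11, had a difference of 0.042. The call of Kcnj4 was lost without CPEB3 IgG replicate 1 (1.70, limma adjusted p = 0.103), without replicate 2 (1.44, 0.126) and without the filter on dim probes. The call of Kcnj12 was lost with any array left out (0.55 to 0.82), with spike-in scaling, no scaling or cyclic loess, and without the filter on dim probes.

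Two-pore channels carry the background leak of potassium. The 7 genes of this class that were not called had differences from −0.91 to 0.19. Kcnk2, a leak channel opened by stretch and by lipids, was at 0.029 and 0.081 with CPEB3 IgG and at −1.90 and −1.66 with control IgG. It was 3.57-fold higher (1.84 ± 0.17, limma adjusted p = 0.00432). Kcnk1, a weakly conducting leak channel, was at 3.55 and 3.66 against 1.84 and 1.92, or 3.30-fold higher (1.72 ± 0.15, limma adjusted p = 0.00418). Kcnk10, a close relative of Kcnk2, was at 2.05 and 2.23 against 0.69 and 0.66 (1.46 ± 0.16, limma adjusted p = 0.00553). In these 3 genes the replicates of a group lay close together and far from the other group. Kcnk13, a halothane-inhibited channel of microglia, was at 0.32 and 0.050 against −1.07 and −0.97 (1.21 ± 0.17). The microglia markers had 0 of 5 called higher and 1 lower, with a median of −0.35. Kcnk5, an acid-sensitive channel, was at −3.82 and −4.09 with CPEB3 IgG and stood above background on both of those arrays only. Its call (limma adjusted p = 0.0127) was computed with control signals below background and does not test the bound given next. Against the detection limit of the control arrays Kcnk5 was at least 2.17-fold higher, and it entered the test only through the arrays where it was high. That limit is, for each control array, its own signal of the probe or, if higher, the dimmest signal that passed as well above background there. Kcnk4, another relative of Kcnk2, was not called (−0.095), nor were the acid-sensitive Kcnk3 (0.19) and Kcnk9 (−0.077). The call of Kcnk13 was lost without CPEB3 IgG replicate 1 (1.07, limma adjusted p = 0.0572), and that of Kcnk5 without either CPEB3 IgG array and with normexp.

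Calcium- and sodium-activated channels had calls in both directions. Kcnmb2, a beta subunit that inactivates the BK channel, was at −0.54 and −0.50 with CPEB3 IgG and at −2.25 and −1.84 with control IgG, or 2.89-fold higher (1.53 ± 0.20, limma adjusted p = 0.00827). Kcnmb4, the neuronal beta subunit, was at 4.61 and 4.71 against 3.91 and 3.75 (0.83 ± 0.16, limma adjusted p = 0.0194). The pore of the same channel, Kcnma1, did not follow at its probe with the strongest signal, where the groups overlapped (0.043). Kcnn3, a small-conductance calcium-activated channel, had a difference of 0.82 ± 0.15 and the sodium-activated Kcnt1 one of 0.74 ± 0.17. Kcnn2 (0.20) and Kcnt2 (−0.37) were not called. Kcnu1, the alkaline-activated channel of sperm, was called lower, at −1.44 and −1.67 with CPEB3 IgG against −0.48 and −0.36 with control IgG (−1.13 ± 0.17, limma adjusted p = 0.0111). Leaving out CPEB3 IgG replicate 1 or replicate 2 ended the calls of Kcnmb2 (1.55 and 1.51) and Kcnmb4 (0.89 and 0.78), and leaving out control IgG replicate 2 that of Kcnmb4 (0.75). Those of Kcnn3 (0.76 to 0.88) and Kcnt1 (0.60 to 0.87) were lost with any array left out, and that of Kcnu1 without CPEB3 IgG replicate 2 (−1.02). Without scaling Kcnmb4, Kcnn3 and Kcnt1 were not called, with the mean of probes Kcnn3 and Kcnt1, without the filter on dim probes Kcnt1, and with spike-in scaling Kcnt1 and Kcnu1 (−0.48).

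Of the 92 genes, 11 were not tested because no probe was well above background on at least 2 arrays. Kcnj1, Kcnk18, Kcnk7, Kcnmb1 and Kcnn1 passed on 0 arrays, and Kcna10, Kcne1, Kcnj8, Kcnn4, Kcnq1 and Kcnv2 on 1. Several of these are known from kidney, heart or blood vessels. Of the 81 tested genes 76 stood well above background on every array, and the exceptions were Kcne2, Kcne3, Kcnh6, Kcnk5 and Kcnmb3.

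The 81 tested genes had 117 tested probes, of which 32 were called higher, against 15.8% of all 40616 probes, and 6 lower, against 18.9%. In 31 genes at least 2 probes were tested, and the ratio of the strongest to the next probe within each array was tested over the 8297 genes of this kind. The ratio differed between CPEB3 IgG and control IgG in 7 of the 31 (22.6%), against 18.9% of all such genes. Among them were Kcna5, Kcnc1, Kcnf1, Kcnh7, Kcnip4 and Kcnk4. With any one array left out 0 of the 31 were called, while 7 were with normexp background correction and 6 with the replicate block. Both probes were called higher in 2 genes, against 7.4% of all pairs. These were Kcnmb4 (0.83 and 1.09) and Kcnmb2, whose next probe was at −3.08 and −3.05 with CPEB3 IgG and below the limit with control IgG. That probe was at least 3.69-fold higher and was tested only through the arrays where it was high. The calls differed in 14 pairs (45.2%), against 37.3% of all, in 11 of them (35.5%, against 18.7%) because 1 probe was called higher. The 2 differences had opposite signs in 16 pairs (51.6%), against 34.5% of all.

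**Figure D3:**
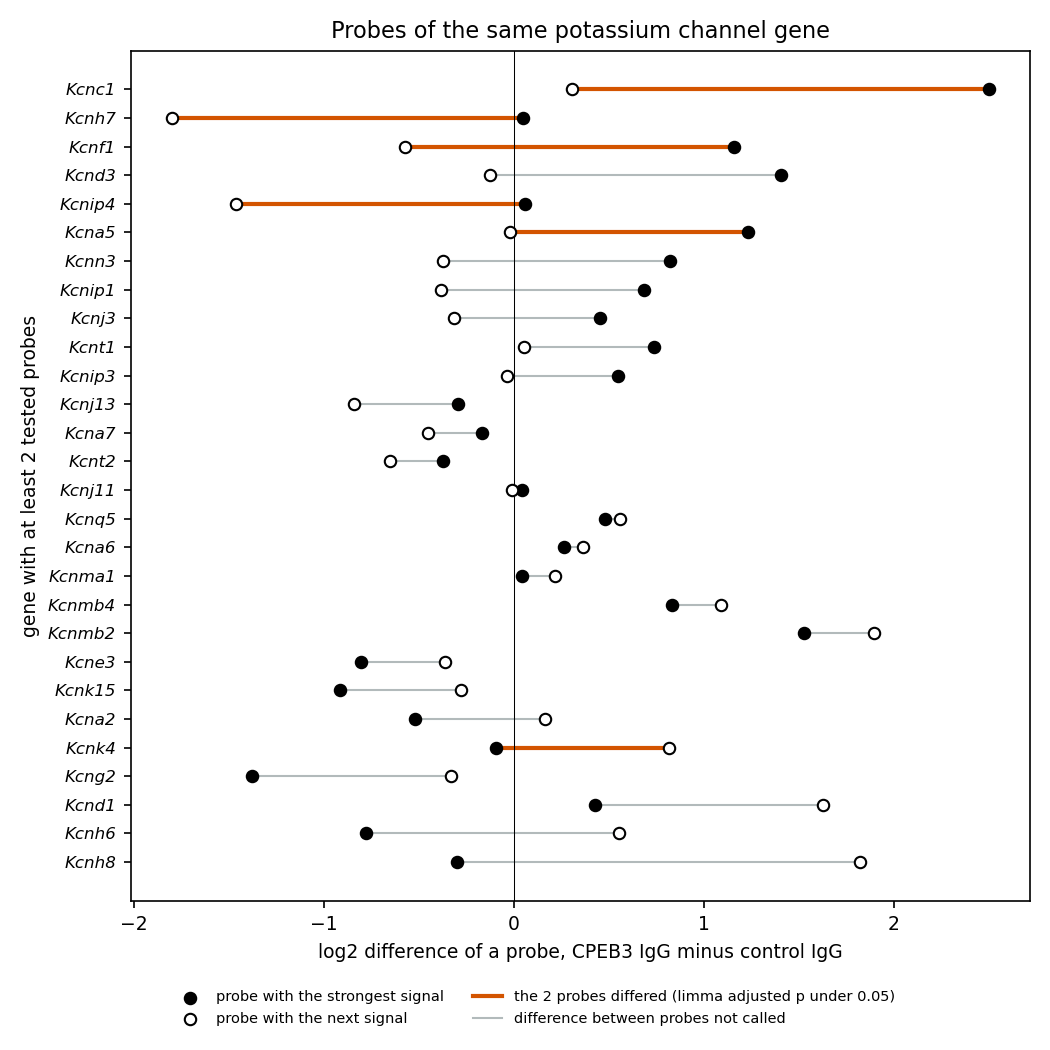
Log2 difference (CPEB3 IgG minus control IgG, horizontal axis) of the probe with the strongest signal (filled) and the next probe (open) in 28 potassium channel genes with at least 2 tested probes, in order of the difference between them. Orange lines join the 6 pairs whose ratio was called, and 14 lines cross 0. The open points of Kcnh7 and Kcnmb2 rest on signals below background in 1 group.

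The plot of paired probes shows Kcnc1 with the widest gap among the called pairs. Its probe at 3944 exceeded the one at 7686 by 2.19 ± 0.25 (limma adjusted p = 0.0212). These probes were designed on different transcripts of Kcnc1. The 3 probes had levels of 3.40 and 3.24 against 0.77 and 0.87, of 1.36 and 1.22 against 1.21 and 0.76, and of −1.07 and −0.28 against −0.50 and −0.16. The groups are far apart at the first of these probes alone. With the mean of its probes Kcnc1 had a difference of 0.82 and was still called.

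In Kcnf1 and Kcna5 both probes lie on the same transcript. The Kcnf1 probe at 4108 had a difference of 1.16 and the one at 2128 a difference of −0.57, at levels of −2.03 and −1.89 against −1.48 and −1.30, so the groups were ordered oppositely. The gap was 1.73 ± 0.19 (limma adjusted p = 0.0199). The Kcna5 probe at 2941 had a difference of 1.23 and the one at 2141 a difference of −0.022, at −1.20 and −1.24 against −1.12 and −1.27, a gap of 1.25 ± 0.19 (limma adjusted p = 0.0291). Kcnip4 had the same order, with 0.060 at position 1981 and −1.46 at 709, where the levels were −1.25 and −1.03 against 0.22 and 0.42. The probe at 709 was called lower (limma adjusted p = 0.00875), while the gene was not called.

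The other pairs with a called ratio included a gene with the opposite order. In Kcnk4 the probe at 373 was called higher (0.81, limma adjusted p = 0.0495) and the one at 1575 was not called (−0.095). In Kcnh7 the probe at 3639 gave 0.048. A second Kcnh7 probe, on another transcript, was above background on the control arrays only, at −3.44 and −3.67. With CPEB3 IgG this probe was at least 2.69-fold lower. Its limma adjusted p of 0.0108 was computed with CPEB3 IgG signals below background and does not test that bound. The probe was tested only through the arrays where it was high, and the called ratio of Kcnh7 rests on it. The Kcnh8 probe at 3826 was called higher (1.82) and the one at 3393 was not called (−0.30), though their ratio was not called. Of 3 Kcnd1 probes, that at 5183 was called higher (1.63), that at 1229 lower (−0.77), and that at 1896 was not called (0.43). Kcnd3, Kcnip1, Kcnn3 and Kcnt1 each had 1 probe called higher and a next probe, with −0.13, −0.38, −0.37 and 0.052, that was not called, and Kcng2 had 1 called lower and a next probe at −0.33 that was not. Beyond the paired probes, 1 further probe of Kcna6 (0.65) and 1 of Kcnma1 (0.86) were called higher, while these genes were not. With the mean of their probes Kcnh7 (−0.88) and Kcnip4 (−0.70) were called lower and Kcnh8 (0.76) higher, so each turned in sign. The value of Kcnh7 takes in the probe that was below background with CPEB3 IgG.

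Over the 18 pairs on the same transcript, the probe nearer the 3′ end had the higher difference in 13 (72.2%), and over the 3940 such pairs on the whole array in 75.2%. The order seen in Kcnf1, Kcna5 and Kcnip4 was thus about as common as over the whole array. The probe with the higher difference held more T in 15 of the 31 pairs, against 57.4% of all pairs, and in 3 of the 7 pairs whose ratio was called. Over the 117 probes the share of T, with a median of 28.3%, correlated with the difference at a Spearman rho of 0.32, and over all 40616 probes at 0.28. These points share arrays and some share a gene, so the values are descriptions. A run of TTTTT was in 15 of the 117 probes (12.8%), against 10.6% of all, and 9 of these 15 were called higher, as were 23 of the 102 without it. Over the whole array 31.1% of the probes with this run were called higher and 14.0% of those without. The polyadenylation signal AATAAA was in 14 of the 117, against 11.0% of all.

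Kcne2 differed between replicate numbers more than between antibodies and was singled out after its values were seen. It encodes a small beta subunit that is abundant in the epithelium of the choroid plexus. Its level was −0.15 and −1.80 in replicate 1 of CPEB3 IgG and control IgG, and −6.77 and −6.29 in replicate 2, where the probe was not well above background. The difference between antibodies was 0.59 ± 2.71 (limma adjusted p = 0.881). Replicate number cannot be told apart from the second slide position. Kcnj13, another channel of that epithelium, was at −1.85 and −1.39 in replicate 1 and at −2.51 and −2.39 in replicate 2, and was not called (−0.30).

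Choroid plexus markers, a list added after Kcne2 was seen, moved with the replicate number too. All 10 were tested, 9 stood well above background on every array, 0 were called between antibodies, and 8 were higher in replicate 1 than in replicate 2 with both antibodies. Transthyretin (Ttr), the main secreted protein of that epithelium, was at 3.92 and 4.71 in replicate 1 and at −0.94 and −0.56 in replicate 2. The log2 summed signal of the list was 4.25 and 4.93 in replicate 1 and 1.49 and 1.64 in replicate 2. Its part in the differences of the other channel genes was not tested. Replicate 1 was also above replicate 2 with both antibodies in 4 of 5 markers each of astrocytes, oligodendrocytes and microglia. The same order held in 3 of 5 markers of vessels and 3 of 6 of inhibitory neurons. It held in 0 of 5 of excitatory neurons, 1 of 4 of hippocampus and 1 of 2 tested of cerebellum.

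**Figure D4:**
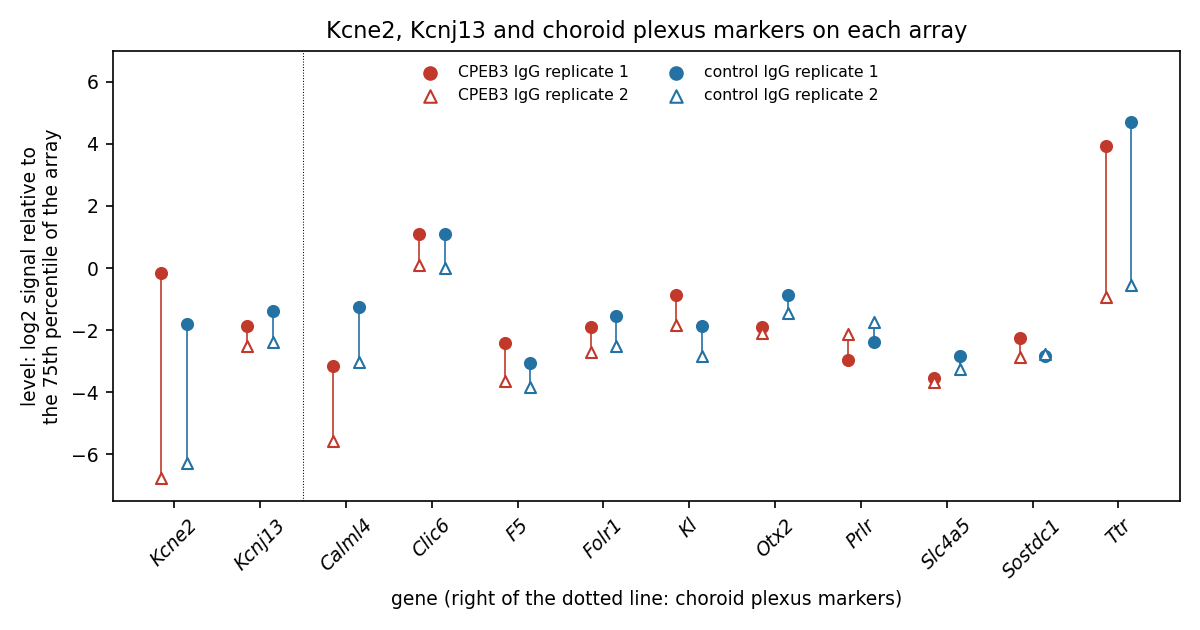
Level (vertical axis, log2 signal relative to the 75th percentile of the array) of Kcne2, Kcnj13 and 10 choroid plexus markers on the 4 arrays, red for CPEB3 IgG and blue for control IgG, circles for replicate 1 and triangles for replicate 2. Ttr lies at 3.92 and 4.71 in replicate 1 and at −0.94 and −0.56 in replicate 2.

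Proteins that bind, move or cluster potassium channels were called in both directions. Of 38 such genes 36 were tested, and 11 were called higher (30.6%) and 4 lower (11.1%), with a median difference of 0.25. All genes tested gave 19.2% higher and 20.2% lower, with a median of −0.14. The highest were Hcn3, a related pacemaker channel (2.59), Cntnap1, which holds the junction beside the node of Ranvier (2.52), Ank3, the scaffold of the axon initial segment (2.14), and Adam22, the receptor of LGI proteins at axonal channels (2.09). Among the lowest were Vapb, a partner of Kcnb clusters at the endoplasmic reticulum (−1.72), the calmodulin gene Calm3 (−1.06), and Rgs7, a regulator of G protein signals (−0.77). The calmodulin genes were called in both directions, with the highest at 0.75. The surface partners of Kcnd channels, Dpp6 and Dpp10, were both called higher (1.09 and 1.25), as was Abcc8 (1.71), the sulfonylurea receptor of the ATP-sensitive channel, and these 3 were picked after their values were seen.

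The nearest other channel families are given for scale. Over all genes tested 19.2% were called higher and 20.2% lower, with a median difference of −0.14. Of 12 sodium channel genes tested 5 were called higher (41.7%) and 1 lower (8.33%), with a median difference of 0.41. Scn4b (3.11) and Scn3a (2.82) had the largest differences, followed by Scn2a (1.02) and Scn10a (0.98). Of 25 calcium channel genes 6 were called higher (24%) and 2 lower (8%), with a median of 0.061. Cacna1g (2.16), Cacna1d (2.13), Cacna2d1 (1.88) and Cacng4 (1.77) were the highest, and Cacnb1 (−1.19) and Cacnb4 (−0.87) were lower. Whether the families differ from the potassium channels was not tested.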

How the data were processed

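Per the file headers, the deposited values are intensities of single spots in 1 colour, written by Agilent Feature Extraction (10.5.1.1), with background subtracted inside each array and arrays not scaled to each other. The mean and local background intensities, as deposited, were used only for the normexp alternative. Control spots and outlier spots were left out. Spots of a probe were averaged, log2 of the processed signal was set against the 75th percentile of the array, and a probe was kept if at least 2 of the 4 arrays had it well above background. A gene stands by its tested probe with the strongest mean signal. Differences were fitted with lmFit and eBayes of limma (3.58.1, under R 4.3.3) without a block, with Benjamini-Hochberg adjustment over all genes, all probes or all probe ratios. The fits were tested on simulated data. Intervals cover 95%. The number of arrays limits the precision.

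Members and lists were chosen with earlier results of these data known. Called members, genes whose probes disagree, genes dim in 1 group, the strongest probe of each class, the largest called partners and Cpeb3 were named by rule, and every other gene named was chosen after its values were seen. Alternatives were normexp (offset 50), other scalings, other filters, an intensity trend, all probes of a gene averaged, the replicate number as a block, stricter thresholds and each array left out. Coordinates are mm9, per the file headers. RefSeq accessions matched 125 of the 138 probes, through a table of the GRCm38.p6 assembly used for names only. Some genes that the rule names are counted but not reported here by name.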

Additional observations from a re-analysis of the deposited data

How the results depend on the processing

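The 27 potassium channel genes called higher became 14 without scaling, 8 at an adjusted p under 0.01 and 17 with a 2-fold minimum, and 6 to 20 with each array left out. The 3 called lower became 0 with spike-in scaling and at an adjusted p under 0.01, 5 with the filter on all 4 arrays and with the mean of a gene's probes, and 1 to 4 with each array left out. The median difference of 0.37 became 0.27 with normexp, 0.66 with median scaling, 1.03 with spike-in scaling, 0.25 without the filter, 0.29 with the mean of probes, and 0.30 to 0.40 with each array left out. With the mean of probes Kcnh7 turned to −0.88, Kcnh8 to 0.76 and Kcnip4 to −0.70. The median stayed above that of all genes in every setting run. With 2 arrays in a group, the one left alone is assumed to vary like the others.

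With the replicate number as a block, 29 genes were called higher and 6 lower. The labels give the groups the same replicate numbers without saying that a number marks a shared lysate. Arrays of the same number deviated together (correlation 0.39 over genes). The block is therefore only an alternative, given as counts and, for Kcnip3, as a lost call. All arrays lay on 1 slide in 1 scan, so a slide block could not be fitted. The probe of Kcnk5 and the next probes of Kcnh7 and Kcnmb2 were below background on both arrays of 1 group and give only a bound, which also limits the −0.88 of Kcnh7, and genes below background were not analysed further.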
